A study of Mus musculus with 11 samples.

Results

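The comparison set the urothelium, the epithelium that lines the ureter, against the cortical collecting duct in the embryonic mouse. It used 5 of the 11 arrays of the study, 3 labelled urothelium and 2 labelled cortical collecting duct, chosen by their labels alone, and 13614 genes were tested. All samples were wild-type CD-1 mice, an outbred stock, at E15.5 (Theiler stage 23), with the sex recorded as unknown and no agent or altered allele in either group. Each sample pooled approximately 50 laser-captured sections of 5 fetal kidneys, amplified in 2 rounds and hybridised to a 1-colour Affymetrix array. The labels do not say whether 2 pools could come from the same fetus, so p-values cover only the variation among pools, some of which may be technical. The series set out to profile gene expression in each dissected element of the kidney. This comparison asks how its 2 epithelia of common origin differ.

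Both epithelia descend from the ureteric bud, an outgrowth of the nephric duct. The branching part of the bud forms the collecting duct system, whose principal cells take up water and sodium and whose intercalated cells move acid and base. The unbranched stalk forms the ureter, whose epithelium stratifies and makes uroplakins, membrane proteins that assemble into the plaques of the mature urothelial surface. Sonic hedgehog and Wnt ligands from the ureteral epithelium act on the surrounding mesenchyme, which becomes smooth muscle.

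Levels below are log2(signal + 55), where 55 is the 20th percentile of all values, and a difference is the urothelial mean minus the collecting duct mean on that scale, with its standard error (SE) from the fit. Genes counted as called had an adjusted p under 0.05 (limma, Benjamini-Hochberg) and differed by at least 1, which is 2-fold. A gene was termed separated, with no test, where all 3 urothelial arrays lay on one side of both collecting duct arrays and the means differed at least 2-fold. As the samples are pieces of tissue, fewer cells of a type and less RNA per cell cannot be told apart.

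The markers bore out both labels in direction. Of the urothelial markers Upk1b, Upk2, Upk3a, Upk3b, Trp63 and Foxa1, each had every urothelial array above both collecting duct arrays. Krt5, a basal keratin, did not: its levels were 9.0 and 8.35 in the duct and 9.80, 9.29 and 8.95 in urothelium. Of the collecting duct markers, Aqp2, Calb1, Wnt9b, Elf5 and Tfcp2l1 were higher in both collecting duct arrays than in any urothelial array. Aqp3 was too, but narrowly and by less than 2-fold (difference -0.63), while Scnn1b and Scnn1g overlapped. Upk1a lay below the filter on dim probe sets.

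Some technical facts touch all of the results. Median signals ran from 247 to 401, and the 3'/5' signal ratio of the Gapdh control probe sets, which rises as RNA is shorter or less completely copied, was 12.3 and 25.9 in the duct and 16.7, 55.3 and 29.7 in urothelium. Urothelium array 3 lay nearest to the collecting duct: its correlation over all genes tested was 0.916 with urothelium array 1, 0.884 with urothelium array 2, and 0.909 with collecting duct array 2, which itself correlated at 0.905 with collecting duct array 1. The titles or source names carry a date-like part whose meaning is not stated, called label batch here. Urothelium fell in label batches 1 and 2 and collecting duct in 3 and 4, so no within-batch value exists, and label batch and compartment cannot be told apart within these 5 arrays.

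In all, 35 genes were called, 0.257% of those tested. Of these, 22 (0.162%) were higher in urothelium and 13 (0.0955%) higher in collecting duct. Folds ran from 6.32 to 45.2 with a median of 12.7 among the 22, and from 4.67 to 20.1 with a median of 9.08 among the 13. The urothelial and collecting duct arrays of all 35 did not overlap. In all, 1035 genes (7.6%) were separated higher in urothelium and 836 (6.14%) higher in collecting duct, 13.7% together, counts that include the 35. Each count of separated list members below is to be read against these shares. Of the called genes 5 (Fos, Arl14, Msx2, Lrrtm1 and Opcml) were above the array median only in the compartment where they were high, so they passed the filter (above the array median in at least 2 arrays) through that group alone. For such genes the size of the difference depends on the pseudocount, the 55 added to each signal before log2 was taken. More widely, 13 of the 35 had every array of the low group below the array median. For Arl14, Gtse1, Itga5 and Lrrtm1 the low group was also wholly below the pseudocount. With a pseudocount of 12, 20 of the 35 were still called. Opcml and Msx2 were among those lost (limma adjusted p = 0.0891 and 0.0824). The median difference over all genes was 0.02 and the median SE was 0.52. The 95% interval of the difference lay within 2-fold either way for 405 genes, 2.97%, so for most genes a 2-fold difference lay within the interval.

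**Figure D1:**
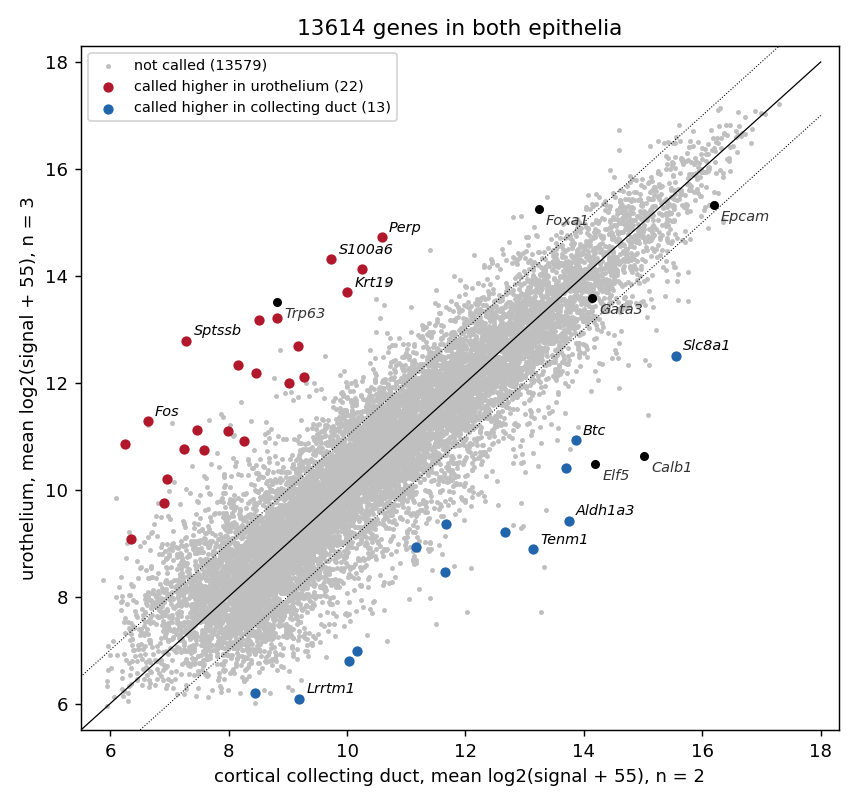
Mean log2(signal + 55) of each of 13614 genes in cortical collecting duct (horizontal axis, n = 2) against urothelium (vertical axis, n = 3), with equality as a solid line and 2-fold as dotted lines. The 22 genes called higher in urothelium (red) and the 13 called higher in collecting duct (blue) lie far from the line, and named black points are markers that were not called.

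These counts rested on few arrays. Without collecting duct array 1, and again without array 2, limma called 0 genes, with 1407 and 1290 genes at an unadjusted p under 0.05. With all arrays that number was 1637 (12%), of which 947 (6.96%) were higher in urothelium and 690 (5.07%) higher in collecting duct. Without urothelium array 1 the calls were 5 and 2, and without array 2 they were 5 and 1. Sptssb, Upk3a, Arl14, S100a6 and Lrrtm1 were called in both of those fits, Arl14 and Lrrtm1 being among the 5 that passed the filter through their high group alone. Without urothelium array 3 they rose to 80 higher in urothelium and 67 higher in collecting duct, and 34 of the 35 genes were still called. All 35 kept their sign in each of these fits. Their urothelial and collecting duct arrays did not overlap, so leaving out 1 array could not reverse a sign.

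A fit with label batch as a fixed block called 0 genes, with 630 (4.63%) at an unadjusted p under 0.05. It links the 2 compartments only through muscle, as all proximal tubule arrays shared label batches 3 and 4 with the duct. Muscle arrays 1 and 3 were in label batches 2 and 1. Muscle array 2, in label batch 4, was the only one on the duct side, so each difference in this fit depends on it. The median absolute difference of the 35 genes was 3.19 with the block and 3.29 without it, but single genes moved, Enho from 3.11 to 1.92, Fos from 4.65 to 3.57 and Tenm1 from -4.26 to -5.27, while the median SE over all genes grew from 0.52 to 0.87. All 35 kept their sign, and 34 had an unadjusted p under 0.05 in that fit. The 35 were picked from these same arrays, so neither count is a separate test of them. The lowest adjusted p there was 0.707.

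**Figure D2:**
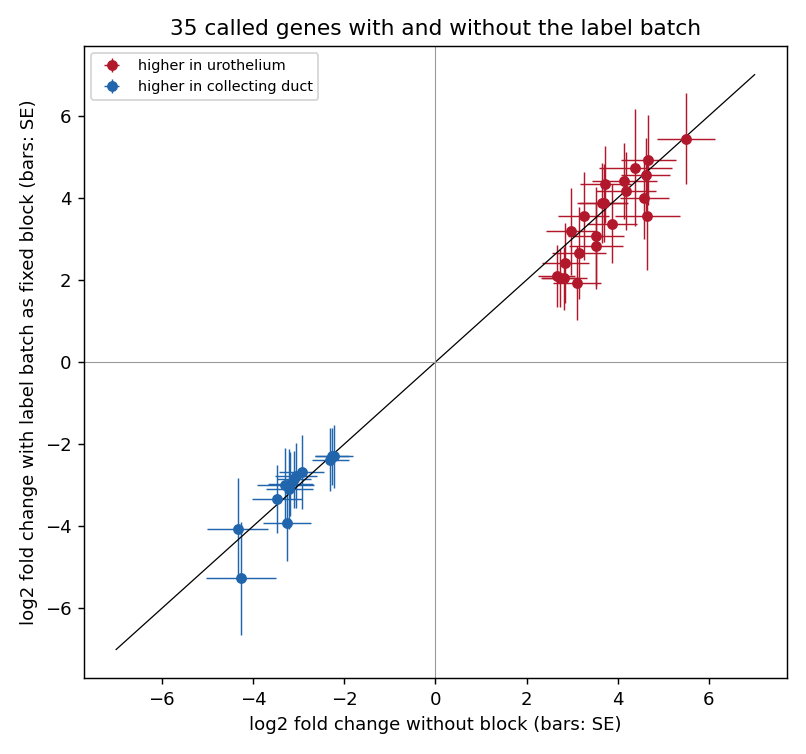
Difference between urothelium and cortical collecting duct for the 35 called genes, log2 scale, without a block (horizontal axis) and with label batch as a fixed block (vertical axis); bars are SE and the line is equality. All 35 points keep their sign, with a median absolute difference of 3.29 without the block and 3.19 with it.

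Uroplakins and other genes of urothelial differentiation were among the urothelial calls. Of 19 measured genes of urothelial differentiation, 3 rose (Upk3a, Upk1b and Krt19), 0 fell and 16 were not called. In all 13 of the 19 were separated, each of them higher in urothelium, and the median difference of the list was 2.01 against 0.02 over all genes. The summed signal of the 19 genes was 193%, 214% and 108% of the collecting duct mean in urothelium arrays 1, 2 and 3, and array 3 lay just below collecting duct array 1. The list was chosen for urothelium, and the median stayed between 1.73 and 2.43 in every alternative fit. Called members numbered 7 without urothelium array 3, 1 without array 1, 1 without array 2 and 0 without either collecting duct array or with the fixed block.

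Upk3a, a uroplakin with a single membrane span, was at 8.43 and 8.58 in the duct and 13.92, 13.24 and 12.36 in urothelium. All 3 urothelial arrays were high and the groups lay well apart, with a difference of 4.67 ± 0.60 (SE, n = 3 and 2; limma adjusted p = 0.0068), 25.4-fold. Upk1b, a tetraspanin that pairs with Upk3a, was at 8.76 and 8.88 in the duct and 14.26, 13.81 and 11.54 in urothelium, array 3 being the lowest. It differed by 4.38 ± 0.80 (adjusted p = 0.0398), and its 3 other probe sets gave 5.85, 5.70 and 4.34. Krt19, a keratin of simple and transitional epithelia, was at 10.19 and 9.82 against 14.07, 14.22 and 12.77, a difference of 3.69 ± 0.53 (adjusted p = 0.0167).

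Other members were separated but not called. Upk3b was 2.42 ± 0.63 higher in urothelium (adjusted p = 0.142), Upk2 1.97 ± 0.72 higher (adjusted p = 0.289) and Snx31, a sorting nexin bound to uroplakins, 2.14 ± 0.55 higher (adjusted p = 0.139). With the fixed block the difference of Upk2 was -0.23. Pparg, a nuclear receptor that drives urothelial differentiation, was at 9.93 and 7.66 in the duct and 11.87, 12.87 and 10.48 in urothelium (adjusted p = 0.176). Krt20, a keratin of umbrella cells at the urothelial surface, was at 6.6 and 7.77 against 10.92, 10.18 and 8.09 (adjusted p = 0.203). Foxa1, a forkhead factor of endodermal and urothelial epithelia, was high in both: 13.06 and 13.41 in the duct and 15.31, 16.01 and 14.42 in urothelium, a difference of 2.01 ± 0.53 (adjusted p = 0.142).

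**Figure D3:**
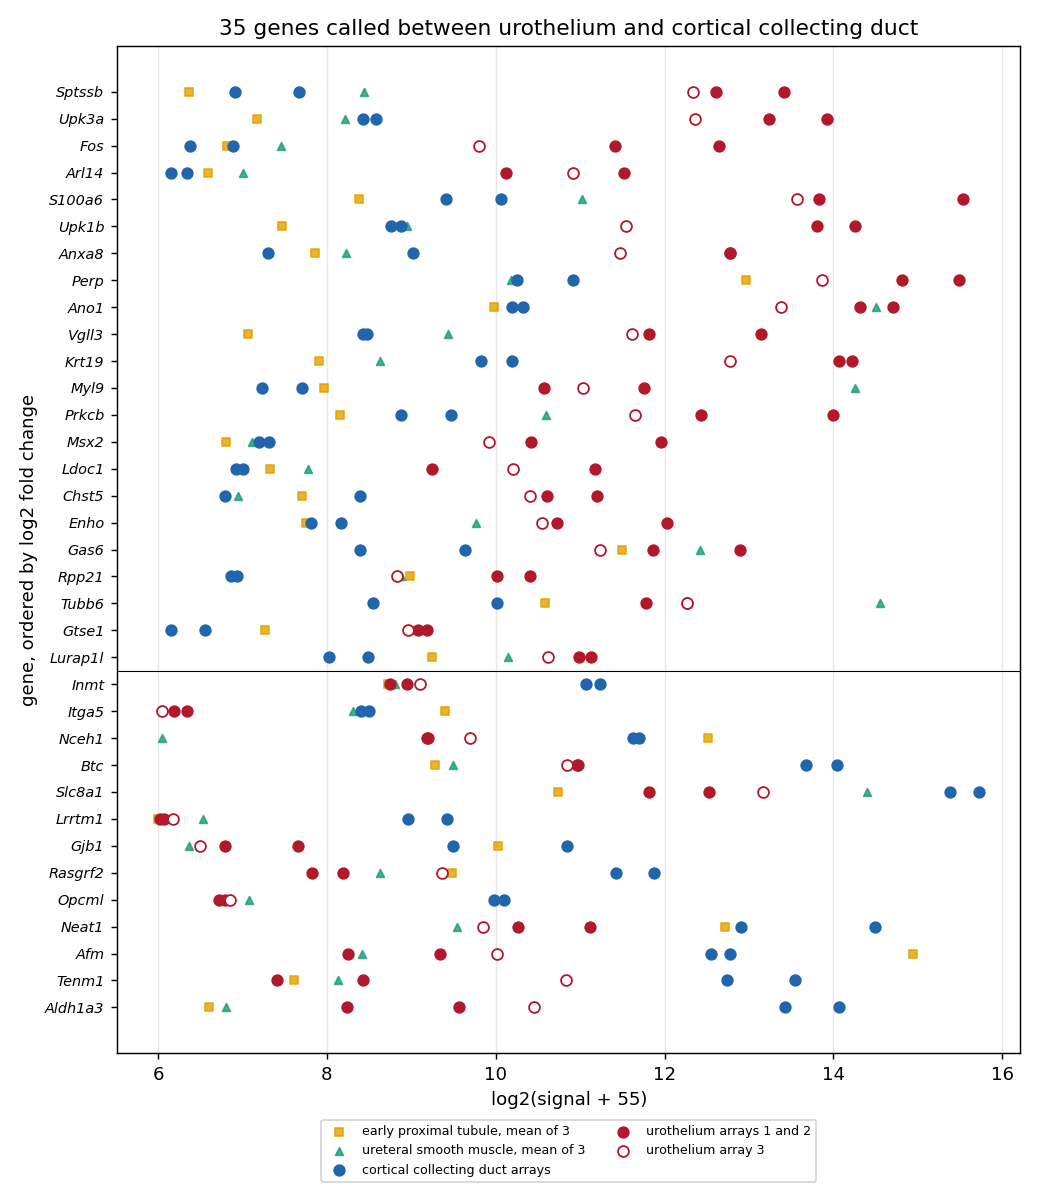
Levels, log2(signal + 55), of the 35 called genes (rows, ordered by difference) in each collecting duct array (blue), urothelium arrays 1 and 2 (filled red) and urothelium array 3 (open red), with the means of early proximal tubule (yellow squares) and ureteral smooth muscle (green triangles). Blue and red points do not overlap in any row, and the open red point is the urothelial array nearest to the collecting duct in 18 of the upper 22 rows and 9 of the lower 13.

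The gene with the widest difference encodes a small subunit of serine palmitoyltransferase, the enzyme that begins sphingolipid synthesis. Sptssb was at 6.91 and 7.67 in the duct and 12.61, 13.41 and 12.34 in urothelium. Its difference of 5.5 ± 0.63 (adjusted p = 0.00433) was 45.2-fold, and its means in proximal tubule and muscle were 6.4 and 8.4. Arl14, a small GTPase of the Arf-like family, was at 6.15 and 6.34 against 10.12, 11.52 and 10.91, and differed by 4.61 ± 0.54 (adjusted p = 0.00433). Its duct signals, 16 and 26, were below the pseudocount, and the difference was 5.79 with a pseudocount of 12 and 3.24 with one of 190.

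The promoters of 4 called genes are printed because they come from both ends of the comparison: Sptssb, Upk3a and Anxa8 from the urothelial side, and Btc, described with the duct genes, from the other. They are 250 bases ending just before the gene start in RefSeq, build GRCm38.p6, 5′ to 3′ along the gene, with capitals marking a match to a searched motif.
Sptssb, minus strand, chr3:69859895-69860144: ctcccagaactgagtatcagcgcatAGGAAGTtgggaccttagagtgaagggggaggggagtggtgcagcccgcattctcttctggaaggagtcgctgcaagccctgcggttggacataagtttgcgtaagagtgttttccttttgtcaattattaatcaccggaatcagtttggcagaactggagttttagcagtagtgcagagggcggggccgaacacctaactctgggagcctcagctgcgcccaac
Upk3a, plus strand, chr15:85016891-85017140: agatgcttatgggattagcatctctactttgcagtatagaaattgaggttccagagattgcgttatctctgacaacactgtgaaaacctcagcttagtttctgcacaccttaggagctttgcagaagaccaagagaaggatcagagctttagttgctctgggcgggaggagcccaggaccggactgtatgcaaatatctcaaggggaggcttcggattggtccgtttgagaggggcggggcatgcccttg
Anxa8, plus strand, chr14:34085729-34085978: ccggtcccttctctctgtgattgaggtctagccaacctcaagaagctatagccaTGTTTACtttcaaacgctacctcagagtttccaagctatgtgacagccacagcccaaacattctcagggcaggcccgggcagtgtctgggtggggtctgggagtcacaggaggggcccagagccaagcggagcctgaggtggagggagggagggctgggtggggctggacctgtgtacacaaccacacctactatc
Btc, minus strand, chr5:91402995-91403244: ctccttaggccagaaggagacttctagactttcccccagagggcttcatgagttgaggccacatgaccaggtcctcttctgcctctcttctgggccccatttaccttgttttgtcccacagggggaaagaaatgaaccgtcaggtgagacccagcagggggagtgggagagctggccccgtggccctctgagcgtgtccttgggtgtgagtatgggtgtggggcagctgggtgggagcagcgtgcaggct

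The motifs below were searched on both strands of the 32851 promoter windows of the table, of which 17 belonged to 16 genes called higher in urothelium and 14 to 11 genes called higher in collecting duct. The forkhead letters TGTTTAC or TGTTTGC were in 7.29% of all windows, in 2 of the 17 (Anxa8 and Arl14) and in 1 of the 14 (Opcml). The Ets letters AGGAAGT were in 7.69% of all windows, in 2 of the 17 (Sptssb and Fos) and in 1 of the 14 (Nceh1). The GATA letters AGATAAG were in 2.74% of all windows and only in that of Slc8a1 among the 31. The AP-1 letters TGANTCA (6.75%) and the grainyhead letters AACCGGTT, AACTGGTT or AACAGGTT (1.6%) were in 0 of them. A match is a description of the letters in these windows only.

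Calcium- and membrane-binding proteins were among the called urothelial genes. S100a6, a calcium-binding protein of the S100 family, was at 10.06 and 9.41 in the duct and 13.83, 15.54 and 13.57 in urothelium, 4.58 ± 0.54 higher (adjusted p = 0.00433). Of 10 measured S100 genes it was the only one called, and S100a5 was also separated. Anxa8, a calcium-dependent phospholipid-binding annexin, was at 9.02 and 7.30 against 12.77, 12.78 and 11.47, 4.18 ± 0.66 higher (adjusted p = 0.0184). Of 10 annexins 1 was called and 4 were separated, all higher in urothelium: the others were Anxa6 (1.95 ± 0.48, adjusted p = 0.116), Anxa1 (1.23 ± 0.48) and Anxa3 (1.15 ± 0.48). The 3 other probe sets of Anxa6, all dimmer, gave 0.14, -0.41 and 0.21, so its difference held for 1 probe set only.

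Fos, Msx2, Vgll3, Prkcb and Ldoc1 were also called higher in urothelium. Fos, an immediate early factor that responds to growth signals and to handling of tissue, was at 6.89 and 6.38 in the duct and 11.41, 12.64 and 9.80 in urothelium, 4.65 ± 0.71 higher (adjusted p = 0.0175). It was the only called member of 21 immediate early and heat shock genes, whose median difference was 0.14. Fosl2, another Fos family member, differed by -1.11 ± 0.51 and Jun by -0.74 ± 0.44 (adjusted p = 0.406 and 0.538). Whether dissection or stress had a part in the level of Fos was not tested.

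Msx2, a homeobox factor downstream of BMP signals, was at 7.31 and 7.19 in the duct and 10.42, 11.96 and 9.92 in urothelium, 3.52 ± 0.60 higher (adjusted p = 0.0284). Vgll3, a cofactor of Tead transcription factors, was at 8.43 and 8.48 against 11.81, 13.14 and 11.62, 3.73 ± 0.55 higher (adjusted p = 0.0175). Prkcb, a protein kinase C isoform, was 3.52 ± 0.62 higher (adjusted p = 0.0328). Ldoc1, a small leucine zipper protein, was 3.25 ± 0.55 higher (adjusted p = 0.0267). For each of these genes urothelium had the highest mean of the 4 compartments.

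The other urothelial calls, with differences from 2.66 to 3.15, were Chst5, a sulfotransferase, Enho, which encodes the peptide adropin, Gas6, a ligand of receptor tyrosine kinases, Rpp21, a subunit of ribonuclease P, Tubb6, a tubulin, Gtse1, which is expressed as cells divide, and Lurap1l. Other probe sets of Enho, Gas6 and Tubb6 went the other way, at -0.17, -0.38 and -0.26, all of them dimmer, while another probe set of Enho differed by 2.04 in the same direction. Over the 35 called genes, 17 had a single probe set, and 18 of the 26 other probe sets of the rest differed at least 2-fold in the same direction, with 5 in the opposite one.

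Genes of the basal layer leaned to the urothelium, with 1 call. Perp, a desmosomal membrane protein of stratified epithelia, was at 10.25 and 10.92 in the duct and 15.49, 14.81 and 13.87 in urothelium. It was 4.14 ± 0.71 higher (adjusted p = 0.03), and its proximal tubule mean was 12.96. It was the only called gene of 12 basal and of 16 desmosomal genes, lists that share it. Of the 12 basal genes, 6 were separated higher in urothelium and 2 higher in collecting duct, with a median difference of 1.07 (between 0.39 and 1.93 in the alternative fits). Of the 22 basal genes listed, 7 lay below the filter, among them Krt14, Krt15, Krt17, Itgb4, Col17a1 and Ngfr. The summed signal of the 12 was 145%, 97.1% and 72% of the proximal tubule mean in urothelium arrays 1, 2 and 3. In the collecting duct arrays it was 40.4% and 48.3%. Calls in the basal list numbered 3 without urothelium array 3 and 0 without any 1 of the other 4 arrays. The desmosomal list had 3 separated and a median of 0.24.

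Trp63, the transcription factor that specifies basal cells of stratified epithelia, was at 7.28 and 10.36 in the duct and 14.54, 13.54 and 12.44 in urothelium. Its difference of 4.69 ± 1.13 was as wide as that of Upk3a, but the collecting duct arrays lay far apart and it was not called (adjusted p = 0.106). Lama3 and Lamb3, chains of the laminin under stratified epithelia, were 2.39 ± 0.55 and 2.78 ± 0.63 higher (adjusted p = 0.0918 and 0.0851). Both chains were called without urothelium array 3, at 2.99 and 3.38, and neither was called with the fixed block.

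Muscle genes moved with the urothelium. Myl9, a myosin light chain of smooth muscle, was called higher in urothelium: 7.70 and 7.23 in collecting duct, 11.76, 10.57 and 11.03 in urothelium and a mean of 14.3 in ureteral smooth muscle. Its difference was 3.65 ± 0.55 (adjusted p = 0.0175). Of 23 contractile genes it was the only call, but 12 were separated, all higher in urothelium, and the median difference was 1.40. The count of calls was 7 without urothelium array 3, and 0 without array 1, without either collecting duct array or with the fixed block.

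The summed signal of the 23 contractile genes was 3.93% and 6.8% of the muscle mean in the collecting duct arrays, and 26.1%, 12.7% and 12.4% in the urothelial arrays. Acta2, smooth muscle actin, was at 11.44 and 11.37 in collecting duct, 15.56, 14.82 and 13.09 in urothelium and a mean of 17.2 in muscle (difference 3.09 ± 0.62, adjusted p = 0.0629). Its 2 other probe sets, both dim, gave 0.65 and -0.41. Other defining genes were Actg2 (3.07 ± 0.71), Tagln (2.36 ± 0.60), Myh11 (2.73 ± 1.05) and Cnn1 (1.10 ± 0.44), none of them called. Urothelium array 1 was the highest of its group for all 5 of these genes, and Myh11 alone overlapped, with urothelium array 3 at 7.44 and collecting duct array 2 at 8.38. The part of this signal in the other urothelial values was not tested.

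Among the 22 urothelial calls, 4 had their highest mean in muscle: Ano1, a calcium-activated chloride channel, Myl9, Gas6 and Tubb6. Ano1 was at 10.32 and 10.19 in collecting duct, 14.71, 14.31 and 13.38 in urothelium and a mean of 14.5 in muscle, so muscle and urothelium were alike in level and the duct low. The remaining 18 were highest in urothelium. Of them, 16 had every muscle array below every urothelial array, and the exceptions were Rpp21 and Gtse1.

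Markers of the mesenchyme around the ureter were mixed. Of 16 such genes 0 were called, 5 were separated, all higher in urothelium, and the median difference was 0.49. Tbx18, which marks ureteral mesenchyme, was at 7.83 and 9.71 in collecting duct, 12.46, 12.35 and 11.49 in urothelium and a mean of 15.8 in muscle (difference 3.33 ± 0.66, adjusted p = 0.0624). The summed signal of the 16 was 20.2% and 26.5% of the muscle mean in collecting duct and 28.9%, 27.8% and 21% in urothelium, so by this sum the ranges overlapped.

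**Figure D4:**
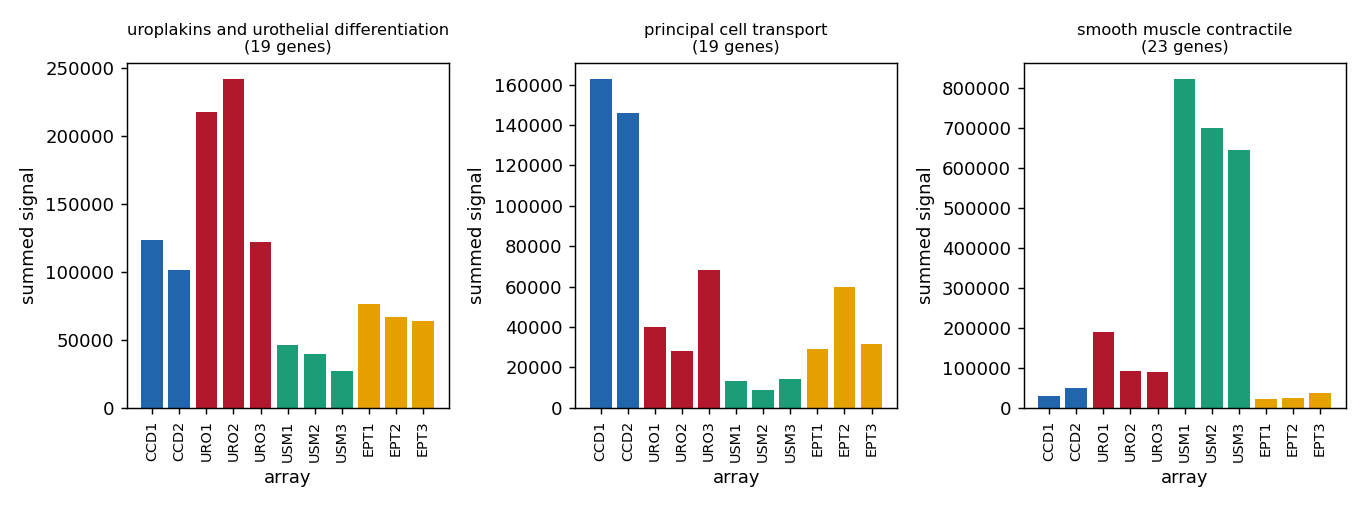
Summed signal of the measured genes of 3 marker lists in each of the 11 arrays: cortical collecting duct (CCD), urothelium (URO), ureteral smooth muscle (USM) and early proximal tubule (EPT). The principal cell sum of the urothelial arrays was 25.9%, 18.1% and 44.2% of the collecting duct mean, array 3 being the highest, and the contractile sum of urothelium array 1 was the highest of the 3 at 26.1% of the muscle mean.

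On the collecting duct side, the called gene with the widest difference was Aldh1a3, which oxidises retinaldehyde to retinoic acid. It was at 13.43 and 14.07 in the duct and 9.57, 8.24 and 10.45 in urothelium, and its means in proximal tubule and muscle were 6.6 and 6.8. The difference was -4.33 ± 0.67 (adjusted p = 0.0175), 20.1-fold, and its 2 other probe sets gave -2.28 and -2.17. Of 19 genes of retinoic acid synthesis and breakdown it was the only one called. Aldh1a1, a second enzyme of the same step, was at 11.95 and 11.62 against 9.62, 9.67 and 10.55 (difference -1.84 ± 0.77, adjusted p = 0.35). Tgm2, a transglutaminase induced by retinoic acid, ran the other way, 2.00 ± 0.43 higher in urothelium (adjusted p = 0.0818), with a muscle mean of 15.4.

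Btc, betacellulin, a ligand of the EGF receptor family, was at 13.67 and 14.04 in the duct and 10.96, 10.97 and 10.84 in urothelium. The urothelial arrays were close together and far below the duct, with a difference of -2.93 ± 0.49 (adjusted p = 0.0246). It was the only call among 13 genes of that family, whose median difference was -0.25. Nrg1, another ligand, differed by -1.66 ± 0.58 (adjusted p = 0.262), and Erbb2, a receptor, 0.60 ± 0.59 higher (adjusted p = 0.737).

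Ion transport and cell contact genes were among the other calls. Slc8a1, the sodium-calcium exchanger, was at 15.73 and 15.38 in the duct and 11.81, 12.53 and 13.17 in urothelium, a difference of -3.05 ± 0.46 (adjusted p = 0.0175), and its muscle mean was 14.4. Gjb1, a gap junction connexin, was at 10.84 and 9.49 against 7.66, 6.79 and 6.5, a difference of -3.18 ± 0.50 (adjusted p = 0.0184). Both were high in every collecting duct array, and Gjb1 was as high in proximal tubule, where its mean lay between the 2 duct values.

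Tenm1, Lrrtm1 and Opcml encode membrane proteins of cell adhesion. Tenm1, a teneurin adhesion receptor, was at 13.55 and 12.74 in the duct and 7.41, 8.43 and 10.83 in urothelium, a difference of -4.26 ± 0.76 (adjusted p = 0.0345), with urothelium array 3 the nearest to the duct. Lrrtm1, a leucine-rich repeat membrane protein of synapses, was at 8.96 and 9.42 against 6.07, 6.02 and 6.18 (-3.10 ± 0.37, adjusted p = 0.00433). Its urothelial signals, 9.76 to 17.4, were below the pseudocount, and the difference was -4.44 with a pseudocount of 12 and -1.83 with one of 190. Opcml, a membrane-anchored adhesion protein, was at 9.98 and 10.10 against 6.79, 6.72 and 6.85 (-3.25 ± 0.52, adjusted p = 0.02), with urothelial signals of 50.4 to 60.0 near the pseudocount of 55 and a difference of -3.91 with a pseudocount of 12 and -2.27 with one of 190. Of 11 markers of neurons and glia 0 were called and 1 was separated, with a median of -0.55.

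The other calls were Rasgrf2, an exchange factor for Ras (-3.20 ± 0.51, adjusted p = 0.02), Inmt, an N-methyltransferase (-2.22 ± 0.41, adjusted p = 0.0471), Neat1, the long noncoding RNA of paraspeckles (-3.29 ± 0.62, adjusted p = 0.0471), and 3 genes that were highest in proximal tubule. Those were Afm, a vitamin E-binding protein, Nceh1, a cholesterol ester hydrolase, and Itga5, the alpha subunit of the fibronectin receptor. Afm was at 12.55 and 12.78 in collecting duct, 8.25, 9.34 and 10.02 in urothelium and a mean of 14.9 in proximal tubule. The other probe set of Neat1 differed by 0.06 and those of Itga5 by 0.08 and -0.28, so both calls held for 1 probe set only.

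No principal cell gene was called with all arrays, yet the list lay lower in urothelium as a whole. Of 19 measured principal cell genes 0 were called, 11 were separated, all higher in collecting duct, and 17 had a difference below 0, with a median of -1.85 (-2.19 to -1.33 in the alternative fits). Without urothelium array 3, 6 were called higher in collecting duct, and with label batch as a fixed block 0 were. Over all genes, calls higher in collecting duct numbered only 2 without urothelium array 1 and 1 without array 2. Elf5, an Ets factor of principal cells, was at 14.26 and 14.13 in the duct and 10.49, 9.06 and 11.91 in urothelium (-3.70 ± 0.76, adjusted p = 0.0669). Tfcp2l1, a factor of collecting duct cell identity, differed by -2.74 ± 0.61 (adjusted p = 0.0848).

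Calb1, the calcium-binding protein calbindin, showed the spread among urothelial arrays most plainly. It was at 14.81 and 15.22 in the duct and 10.44, 7.13 and 14.35 in urothelium, so that array 3 was almost as high as the duct. The difference was -4.37 ± 1.51 (adjusted p = 0.25), and -6.23 without array 3 (adjusted p = 0.0173, the lowest of the alternative fits, where the highest was 0.999). Kcnc2, a voltage-gated potassium channel, had the same order of arrays, with 13.19 and 13.47 against 7.86, 6.01 and 11.78 (-4.78 ± 1.22, adjusted p = 0.13). Lhx1, a homeobox factor of the nephric duct, was higher in urothelium array 3, at 11.55, than in either duct array, at 9.47 and 10.01. The 2 other urothelial arrays had Lhx1 at 6.04 and 6.0.

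Water and sodium transport genes were unevenly divided. Aqp2, the vasopressin-regulated water channel, was at 10.40 and 9.84 in the duct and 7.93, 8.19 and 8.93 in urothelium (-1.77 ± 0.48, adjusted p = 0.161). Avpr2, the vasopressin receptor, was at 11.69 and 10.57 against 6.75, 8.86 and 10.20 (-2.52 ± 0.81, adjusted p = 0.224). Aqp4 differed by -3.42 ± 0.77 (adjusted p = 0.0848), and Fxyd4, which modulates the Na,K-ATPase, by -2.69 ± 0.52 (adjusted p = 0.0553). Hsd11b2, which protects the mineralocorticoid receptor from cortisol-like steroids, differed by -2.10 ± 0.70 (adjusted p = 0.236).

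Of the 3 subunits of the epithelial sodium channel, Scnn1a was separated, with a difference of -1.85 ± 0.62 (adjusted p = 0.237), and the others were not. Scnn1g was at 12.93 and 12.33 in the duct and 12.56, 12.82 and 12.39 in urothelium, a difference of -0.04 with a 95% interval from -1.58 to 1.51, and its means in proximal tubule and muscle were 7.3 and 6.8. Scnn1b differed by -0.50 ± 0.45. Aqp3, the basolateral water channel, was at 12.22 and 11.97 against 11.67, 11.94 and 10.77 (-0.63 ± 0.58). These intervals do not exclude differences of 2-fold.

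Intercalated cell genes leaned to the duct without a call. Of 11 measured, 0 were called, 6 were separated higher in collecting duct and 1, Car15, higher in urothelium. The median was -1.24 (-1.72 to -0.64 in the alternative fits), and 6 further listed genes lay below the filter. The list did not set the duct apart from proximal tubule: its mean level was 9.32 in collecting duct, 9.36 in proximal tubule and 8.33 in urothelium. Foxi1, the factor that specifies intercalated cells, was at 9.32 and 8.68 in the duct and 8.16, 6.49 and 7.70 in urothelium (adjusted p = 0.328). Atp6v0d2, a proton pump subunit, differed by -2.29 ± 0.53 (adjusted p = 0.0918) and Rhcg, an ammonia channel, by -2.27 ± 0.62 (adjusted p = 0.161). Car2, a carbonic anhydrase, was at 12.60 and 13.07 against 11.85, 8.74 and 11.28 (adjusted p = 0.234).

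Transcription factors and structural genes of the ureteric trunk leaned to the duct, to unequal extents and without a call. Of 19 measured, 0 were called and 6 were separated, all higher in collecting duct, with a median of -1.23, which ran from -1.89 without urothelium array 3 to -0.75 with label batch as a fixed block. Without urothelium array 3, 5 were called, and with the fixed block 0 were. Wnt9b, the Wnt ligand by which the duct induces nephrons, was at 13.38 and 12.21 in the duct and 9.95, 7.73 and 10.33 in urothelium (-3.46 ± 0.69, adjusted p = 0.0629). Sall4, a zinc finger factor, was at 9.49 and 9.79 against 5.95, 6.77 and 7.92 (-2.76 ± 0.61, adjusted p = 0.0834). Cdh16, the kidney cadherin, differed by -2.25 ± 0.53 (adjusted p = 0.1), and Sim1 by -2.15 ± 0.69 (adjusted p = 0.226).

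Gata2, Gata3 and Wnt7b were high in both epithelia. Gata3, a factor of the nephric duct and its derivatives, was at 14.33 and 13.93 in the duct and 13.38, 14.65 and 12.71 in urothelium, a difference of -0.55 with a 95% interval from -2.23 to 1.13. Gata2 was at 13.82 and 13.38 against 14.01, 13.96 and 12.70, a difference of -0.04 (-1.06 to 0.98). Wnt7b was at 11.55 and 10.87 against 11.26, 11.69 and 11.08, a difference of 0.14 (-0.75 to 1.03). For Gata3 and Wnt7b the groups overlapped and the muscle and proximal tubule means were lower, whereas Gata2 was highest in muscle, at 14.7.

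General epithelial genes had no call. Of 25 measured, 2 were separated in each direction, against 7.6% (higher in urothelium) and 6.14% (higher in collecting duct) of all genes. The median was 0.07, but 0.58 without collecting duct array 1 and -0.22 without array 2. Cdh1, E-cadherin, was at 14.69 and 14.41 in the duct and 15.03, 15.77 and 14.38 in urothelium, a difference of 0.51 (95% interval -0.57 to 1.59). Epcam, an epithelial adhesion molecule, was at 16.28 and 16.11 against 15.95, 14.97 and 15.08, a difference of -0.86 (-2.19 to 0.46). Esrp1, an epithelial splicing factor, differed by 0.07 (-0.96 to 1.10), and the tight junction gene Cldn7 by 0.07 (-1.17 to 1.30). The keratins of simple epithelia, Krt8 and Krt18, were 0.87 ± 0.52 and 1.15 ± 0.56 higher in urothelium (adjusted p = 0.542 and 0.44).

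Among 25 claudin and tight junction genes 0 were called. Cldn23 was at 10.57 and 10.19 in the duct and 13.08, 12.95 and 11.83 in urothelium (2.24 ± 0.50, adjusted p = 0.0848). Cldn16 differed by -2.31 ± 0.54 (adjusted p = 0.0961), and Cldn9 by -3.06 ± 0.96 (adjusted p = 0.212), its urothelial arrays spreading from 5.87 to 10.82. Muc1, a membrane mucin, was at 12.55 and 11.51 in the duct and 6.08, 8.0 and 9.05 in urothelium (-4.32 ± 0.94, adjusted p = 0.0818). Of 10 genes of mucosal secretion and defence, 0 were called and 4 were separated, all higher in collecting duct.

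Of 44 epithelial transcription factors 0 were called, 8 were separated higher in urothelium and 7 higher in collecting duct. Over all genes the separated shares were 7.6% and 6.14%. The grainyhead family divided: Grhl3, a factor of barrier epithelia, was at 9.18 and 8.25 in the duct and 11.52, 11.78 and 10.08 in urothelium (2.41 ± 0.55, adjusted p = 0.0853), Grhl1 was 2.22 ± 0.76 higher (adjusted p = 0.246), and Grhl2 differed by 0.45 (95% interval -0.83 to 1.73). The AP-2 factors ran in opposite directions. Tfap2a was at 12.28 and 12.41 against 10.26, 10.89 and 10.77 (-1.71 ± 0.52, adjusted p = 0.207), and Tfap2c at 6.91 and 8.86 against 10.75, 9.62 and 9.15 (1.96 ± 0.61, adjusted p = 0.212). Of 26 Hox genes 0 were called and 20 had a difference below 0, with a median of -0.44. Separated were 3, higher in collecting duct, 11.5% against 6.14% of all genes. The median ran from -0.88 without urothelium array 3 to -0.26 without urothelium array 1.

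The signalling lists held few calls. Shh, the hedgehog ligand, was at 15.39 and 14.93 in the duct and 13.39, 14.29 and 12.56 in urothelium (-1.75 ± 0.93, adjusted p = 0.484). It was high in both epithelia and low in the other compartments, with means of 8.6 and 7.6, and with the fixed block its difference was 0.23. Of 14 hedgehog genes 0 were called and 2 were separated, close to the share of 13.7% over all genes. Of 43 Wnt genes 0 were called, 1 was separated higher in urothelium and 5 higher in collecting duct, among them the receptor Fzd4 (-2.01 ± 0.60, adjusted p = 0.194).

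Of 40 BMP and TGF-beta genes 1 was called, Msx2, and 6 were separated higher in urothelium against 1 higher in collecting duct. Bmp2 was at 6.47 and 9.58 in the duct and 9.89, 11.34 and 12.37 in urothelium (3.17 ± 0.89, adjusted p = 0.172), and Id1, a target of BMP signals, 1.56 ± 0.44 higher (adjusted p = 0.172). Of 22 FGF genes 0 were called. Fgfr3, a receptor of the urothelium, was at 9.93 and 10.95 against 13.29, 12.44 and 11.05 (1.82 ± 0.60, adjusted p = 0.23), while Fgfr2 differed by -1.74 ± 0.63 (adjusted p = 0.279) and the ligand Fgf9 by -2.27 ± 0.54 (adjusted p = 0.105). Of 25 Notch genes 0 were called, with 4 separated higher in urothelium and 1 higher in collecting duct. Over all genes the separated shares were 7.6% higher in urothelium and 6.14% higher in collecting duct.

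Genes of the Ret pathway, which drives branching at bud tips, leaned to the duct without a call. Of 18 measured, 4 were separated higher in collecting duct and 1 higher in urothelium, and the median of -0.63 ran from -0.91 to 0.13 in the alternative fits, the last with the fixed block. Ret itself was at 11.18 and 12.54 in the duct and 8.58, 10.56 and 12.28 in urothelium (adjusted p = 0.648). Gfra1, the coreceptor, was at 13.92 and 13 against 10.75, 10.86 and 12.79 (-1.99 ± 0.59, adjusted p = 0.194). In both genes urothelium array 3 was the highest of its group.

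Solute carriers, the largest family examined, were more often higher in the duct. Of 270 measured, Slc8a1 alone was called, 28 were separated higher in collecting duct and 7 higher in urothelium. These are 10.4% and 2.59% of the family, against 6.14% and 7.6% of all genes, and the median difference was -0.25 with 96 above 0. Slc2a13, a myo-inositol transporter, was at 13.19 and 12.68 in the duct and 8.83, 8.94 and 11.48 in urothelium (-3.18 ± 0.67, adjusted p = 0.0732). Slc36a2, an amino acid transporter, differed by -2.14 ± 0.44 (adjusted p = 0.0681). Slc47a1, an organic cation exporter that was highest in proximal tubule at a mean of 15.9, was 2.88 ± 0.69 higher in urothelium (adjusted p = 0.106).

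Of 47 potassium channel genes 0 were called. Kcnj16 and Kcnj10, which form a basolateral channel of the distal nephron, differed by -2.44 ± 0.62 and -2.03 ± 0.49 (adjusted p = 0.126 and 0.107). Kcnk2, a stretch-sensitive channel, was at 8.12 and 9.15 against 11.67, 11.80 and 10.32 (2.62 ± 0.51, adjusted p = 0.0547), with a muscle mean of 12.0. Of 20 glutathione transferases 2 were separated higher in collecting duct and 3 higher in urothelium, among them Gsto1 at 10.47 and 10.51 against 13.29, 13.31 and 12.26 (2.46 ± 0.48, adjusted p = 0.0553). Of 18 serpins 1 was separated higher in collecting duct and 3 higher in urothelium, with Serpinb6b 3.45 ± 0.76 higher (adjusted p = 0.0834). Separated higher in urothelium were 15% of the transferases and 16.7% of the serpins, against 7.6% of all genes. Separated higher in collecting duct were 10% and 5.56%, against 6.14%.

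Cell cycle genes lay above the duct almost throughout, with no call. Of 32 measured, 31 had a difference above 0, against 51.4% of all genes, with a median of 0.85, and 8 were separated, all higher in urothelium. The median stayed between 0.65 and 1.04 in the alternative fits. Mcm3, a subunit of the replicative helicase, was at 10.88 and 11.57 in the duct and 12.41, 12.76 and 13.37 in urothelium (1.62 ± 0.49, adjusted p = 0.198). Its 3 other probe sets gave 0.79, 0.61 and 0.89, each under 2-fold. Ccnd2, cyclin D2, was at 14.10 and 11.52 against 14.96, 16.34 and 13.99 (2.29 ± 0.79, adjusted p = 0.255), and its groups overlapped. The summed signal of the list in each muscle array also exceeded that of both collecting duct arrays, and the part of muscle RNA in these differences was not tested.

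Of 20 cholesterol synthesis genes 17 had a difference above 0, 4 were separated, all higher in urothelium, and the median was 0.61 (0.49 to 0.79 in the alternative fits). Idi1, an isomerase of the pathway, was at 11.19 and 11.70 in the duct and 13.03, 12.82 and 13.02 in urothelium (1.51 ± 0.42, adjusted p = 0.168). Of 37 genes of oxidative phosphorylation 29 had a difference above 0 with a median of 0.48, which was -0.04 with the fixed block. Neither list held a called gene.

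Markers of other cell types were few among the calls. Of 27 proximal tubule genes 0 were called, and their summed signal was 1.87% and 4.59% of the proximal tubule mean in collecting duct and 5.69%, 3.4% and 5.64% in urothelium. Ttr, the carrier transthyretin, was at 7.34 and 5.92 in the duct and 11.40, 12.79 and 9.46 in urothelium (4.58 ± 1.08, adjusted p = 0.103). Its proximal tubule mean was 8.5, below each urothelial array. Of 16 endothelial genes 0 were separated.

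Among 11 leukocyte genes 2 were separated, higher in collecting duct, against 6.14% of all genes. They included Ptprc at 11.10 and 12.49 against 8.85, 6.07 and 10.82 (-3.22 ± 1.17, adjusted p = 0.281). Alas2, an enzyme of red cell heme synthesis, was 2.33 ± 0.53 higher in urothelium (adjusted p = 0.0853). Slc12a1, the transporter of the loop of Henle, was at 11.62 and 13.28 in the duct and 13.60, 7.45 and 10 in urothelium, a spread that exceeded the difference of -2.10 ± 1.44. Slc12a3, Nphs1, Cited1, Pecam1, Cd68, Hba-a1 and Tubb3 lay below the filter.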

How the data were processed

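Members and gene lists were chosen with earlier results of these data known. The authors deposited linear intensity values of 45101 probe sets, which per the submitters' processing notes came from GCOS, the Affymetrix operating software (no version given). Every array had a trimmed mean near 1500, so the deposited scaling was kept, and log2(signal + 55) was computed from the deposited intensity. Compartments were taken from the labels' source names, except for collecting duct replicate 2, whose compartment stands in its title, and replicate numbers follow accession order and pair nothing. Of the probe sets, 64 were controls, 34945 had 1 gene symbol, 932 had more than 1 and 9160 are not named here. Symbols were checked against RefSeq (GRCm38.p6) for 34741, and 0 changed. A probe set was kept if above its array's median in at least 2 arrays, and a gene was read from the probe set with the highest mean, which left 13614 genes.

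Means of the 4 compartments were fitted to all 11 arrays with limma 3.58.1 in R 4.3.3 (7 residual and 6.38 prior degrees of freedom), and the procedure was tested on simulated data. There it called 2% of 100 genes changed by 1.5 on the log2 scale and 61% of 100 changed by 3, with 0 false calls. A gene not called can thus still differ by more than 2-fold. Promoters were those of RefSeq, and 27 of the 35 called genes matched. Plots used Python 3.11.15, pandas 2.3.3 and matplotlib 3.10.9.

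Genes were named by a rule: the 15 called genes with the largest difference each way, the 4 members per list with the largest absolute moderated t, called family members and cell type markers. The other genes named, 47 in number, were chosen after their values were seen. Alternatives were quantile normalization, pseudocounts of 12 and 190, dim probe sets kept or a stricter filter (75th percentile), averaging the probe sets of a gene, leaving out x, s and a probe sets, eBayes with trend and robust options, the 5 arrays alone, label batch as a fixed or random block, and each of the 5 arrays left out.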

Additional observations from a re-analysis of the deposited data

How the results depend on the processing

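No paired analysis was possible because the labels pair no arrays and the numbers of replicates only follow accession order. Genes called higher in urothelium and in collecting duct numbered 22 and 13. The counts were 69 and 53 with a pseudocount of 190, 44 and 23 with the trend and robust options, 1 and 0 with the 5 arrays alone (1494 genes at an unadjusted p under 0.05) and 0 and 0 with label batch as a fixed block. With 1 array left out they ranged from 0 to 80 and from 0 to 67. The collecting duct count was 7 with a pseudocount of 12 and 8 without x, s and a probe sets, and the urothelial count was 39 with the filter at the 75th percentile. Quantile normalization (26 and 11), no filter (18 and 10), the mean of probe sets (22 and 17) and the random block (21 and 13) stayed within 1.5 times. The sign of each called gene held wherever it was tested. For the fits with 1 array left out this was fixed in advance, as the groups did not overlap.

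Of 3546 alternative values of 227 named genes, 3192 kept direction and call, 244 lost the call or threshold, 92 gained it and 18 reversed, none of them called in the first place; the cause was not tested. With the fixed block the reversed differences were Shh 0.23, Ptch1 0.53, Defb1 0.89, Meis1 0.02, Eya1 0.13, Fech -0.41, Upk2 -0.23, Krt7 -0.17 and Car15 -0.29. Without x, s and a probe sets they were Ctnnd1 -1.56, Ndufb8 -0.09, Uqcrq -0.19, Acta2 -0.41 and Tpm2 -0.19, read there from other, dimmer probe sets. With the mean of probe sets they were Ctnnd1 -0.34 and Flt1 0.12. Erbb2 was -0.25 without collecting duct array 2 and Fcgr3 -0.40 without array 1 (up to 2.17 without array 2). The number of arrays limits the precision: the median 95% interval reached 1.13 either side of the difference.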

Other observations

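Over the 1035 genes separated higher in urothelium, the urothelial array nearest to the collecting duct was array 1 for 407, array 2 for 221 and array 3 for 407. Over the 836 separated higher in collecting duct it was array 1 for 236, array 2 for 205 and array 3 for 395.

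The summed signal of 13 nephron progenitor genes was 48%, 18% and 162% of the collecting duct mean in urothelium arrays 1, 2 and 3, and that of 13 renal interstitium genes was 148%, 41.7% and 262%. Foxd1, a marker of renal stroma, was at 9.48, 8.26 and 11.08 in these arrays and at 9.35 and 10.84 in collecting duct. Gdnf, the ligand of Ret, was at 6.48, 6.56 and 10.67 in urothelium and at 10.31 and 10.56 in collecting duct. Eya1, a factor of nephron progenitors, was at 9.70, 9.73 and 11.09 in urothelium and at 10.91 and 12.63 in collecting duct. In each of these 3 genes urothelium array 3 was the highest of its group.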
